A study of Mus musculus with 86 samples.

Results

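The cell bodies of 2 mouse neuronal lines, CAD and N2A, were compared with each other. The members were the 6 RNA-seq libraries whose labels give the soma compartment, the CAD or the N2A line and the minus dox treatment, 3 for each line, of 86 samples in the series. CAD cells descend from Cath.a, a catecholaminergic line from a mouse brain tumour, and N2A (Neuro-2a) cells come from a mouse neuroblastoma, a tumour of the sympathetic lineage. All 6 libraries carry the TetOff TDP-43 genotype. The endogenous Tardbp alleles were inactivated with CRISPR/Cas9 and the only functional TDP-43, an RNA-binding protein, came from a single-copy, HA-tagged transgene under a promoter that doxycycline switches off. No doxycycline was added, so the transgene was on, and the study uses these cells as its wild-type. They are engineered, screened clones and not the parental lines. Cells were plated on transwell membranes, serum was removed to induce differentiation, and the soma was scraped from the top of the membrane before polyA RNA was sequenced.

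The lines were cultured separately, and the labels give DMEM/F12 for CAD and DMEM for N2A, both with serum. The study's methods replace this with serum-free medium after plating. Line, clone, medium and culture run therefore cannot be told apart, and each difference reported here is one between these 2 sets of 3 cultures. Nothing states how far apart the replicates of a line were grown, so the p-values measure the spread between these libraries, which may be partly technical. Beside some results, values are also given with another set of CAD libraries, WT Soma, from cells in which a doxycycline-inducible wild-type TDP-43 transgene was added to the endogenous gene. These are set against the same 3 N2A libraries. The bulk measurement cannot tell fewer cells with a transcript from less of it per cell.

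Cells of the sympathoadrenal lineage arise from the neural crest under a circuit of transcription factors that includes Phox2a, Hand2, Gata2 and Gata3, and they make noradrenaline through the enzymes Th, Ddc and Dbh. Neuroblastoma lines are known to hold either this noradrenergic programme or a neural crest-like, mesenchymal one, marked by factors such as Twist1, Prrx2, Snai1 and the Notch receptors. Neurons further differ in the transmitter they package, which depends on vesicular transporters, and in Hox genes, which record the position along the body axis.

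The 6 libraries held 23148984 to 30026966 estimated counts, of which 4.101% to 6.273% were mitochondrial. Levels are given as TPM, an abundance scaled for transcript length and depth, here over genes outside the short RNA classes, with 3 libraries per line, and differences as the fitted log2 difference, CAD minus N2A, with its SE. A gene was called higher in a line at an adjusted p under 0.01 with a log2 difference of at least 1. Libraries of the same line correlated at 0.977 to 0.985 (6 pairs, across genes) and libraries of different lines at 0.824 to 0.856 (9 pairs). Tardbp, counted over the endogenous gene and any transgene reads that map to it, stood at 1108, 1214 and 1107 TPM in the CAD libraries and 1000, 1018 and 1066 TPM in the N2A libraries. The fitted log2 difference of Tardbp was 0.06, was not called, and was -0.09 under upper-quartile scaling.

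Of 18034 genes tested, 2051 (11.4%) were higher in CAD soma and 2405 (13.3%) were higher in N2A soma. The counts of called members in each gene list below are to be read beside these shares. The adjusted p alone was passed by 9291 genes (51.5%), and the median absolute log2 difference over all genes was 0.65. Among the calls, 372 genes were at least 32-fold higher in CAD and 188 at least 32-fold higher in N2A by the fitted values. N2A had no count in any library for 96 of the CAD-higher genes, and CAD had none for 56 of the N2A-higher genes. Of 8373 genes with at least 10 TPM in both lines, 949 (11.3%) were called in either direction. The median log2 difference of all genes was -0.07, and it was -0.23 under upper-quartile scaling, a shift against which small differences are to be read.

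**Figure D1:**
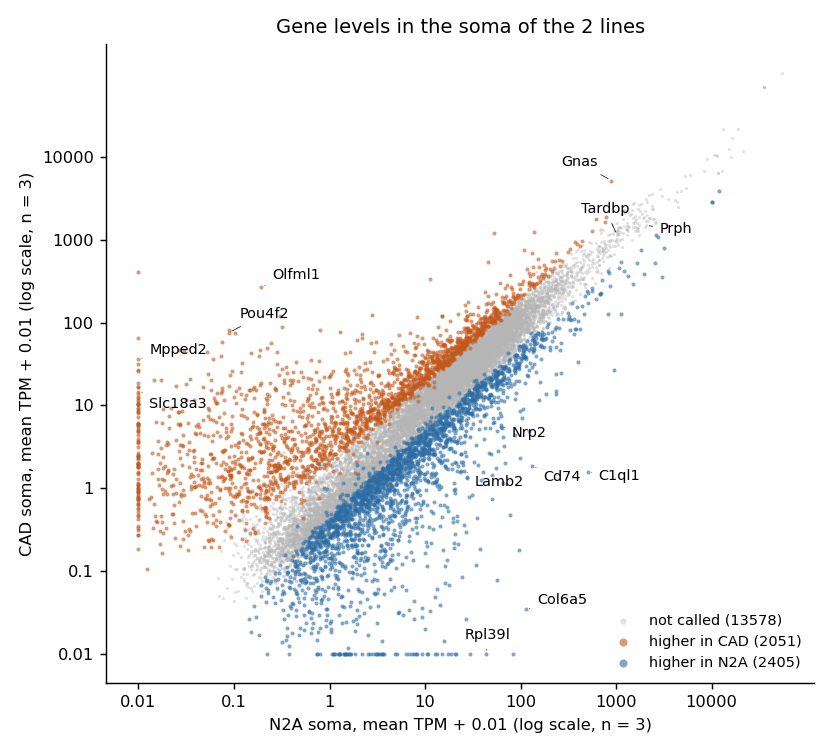
Mean TPM of each tested gene in the 3 N2A libraries (horizontal axis) against the 3 CAD libraries (vertical axis), both on log scales with 0.01 TPM added. Coloured points are genes called higher in CAD (2051) or in N2A (2405), and labelled genes such as Olfml1 (273 TPM in CAD) and C1ql1 (505 TPM in N2A) lie far from the diagonal on which most abundant genes sit.

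Of 14131 protein-coding genes, 1918 (13.6%) were higher in CAD and 1603 (11.3%) in N2A, with a median log2 difference of 0.10. Of 1903 long noncoding genes, 80 (4.20%) were higher in CAD and 443 (23.3%) in N2A, with a median of -0.84, and the TEC class, transcripts still to be tested by experiment, had a median of -0.99. TEC genes took 1.72% to 1.92% of the counts in the CAD libraries and 4.34% to 4.82% in the N2A libraries, and protein-coding genes took 90.9% to 93.5% and 85.6% to 88.9%. These shares differ between the lines in every library, and their part in the N2A-higher noncoding calls was not tested.

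The genes with the largest differences were taken by rule, as the 15 in each direction with at least 10 TPM in the higher line and no overlap between libraries. In CAD, the list included Mpped2 (chr2:106693269-106868356, plus strand, GRCm38), a metallophosphoesterase gene, at 38.4, 35.8 and 33.7 TPM. No N2A library held a Mpped2 count, which makes it at least 364-fold higher in CAD against a floor of 3 counts per library. Itm2a (chrX:107397099-107403376, minus strand), which encodes a membrane protein, was at 29.5, 32.6 and 33.7 TPM in CAD with no N2A count, at least 199-fold higher. The most abundant gene of the list was Olfml1 (chr7:107567446-107591094, plus strand), an olfactomedin-domain gene, at 261, 281 and 277 TPM in CAD and 0.243, 0.0831 and 0.226 TPM in N2A. The log2 difference of Olfml1 was 10.52 ± 0.17 (adjusted p = 3.44e-11). The noncoding gene Gm44773 lies just downstream of it on the same strand and also ranked here, and reads running past Olfml1 could not be told apart from it.

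Several of the CAD leaders encode proteins of neuronal membranes. Rtn4r and Rtn4rl2 encode the Nogo receptor and a close relative, receptors for inhibitors of axon growth. Rtn4r was at 42.9, 46.6 and 49.7 TPM in CAD and had 1 count in all N2A libraries together, and Rtn4rl2 was at 71.3, 78.3 and 95.5 TPM in CAD, again with 1 N2A count. Nat8l, which makes the neuronal metabolite N-acetylaspartate, averaged 20.2 ± 0.541 TPM in CAD and 0.00436 TPM in N2A. Amph, for the endocytic protein amphiphysin, averaged 20.3 TPM against 0.00737 TPM, and Rab6b, a neuronal vesicle GTPase, 44.9 TPM against 0.0202 TPM. Rprm (16.5 TPM), a p53 target that arrests the cell cycle, and the homeobox gene Tlx2 (18.5 TPM) had no count in N2A, which places them at least 95.6-fold and 55.9-fold higher in CAD. Cyp3a41b shares reads with near-identical paralogs and its value is uncertain.

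In N2A, the leading coding gene was Col6a5 (chr9:105856078-105960643, minus strand), a collagen VI chain, at 118, 117 and 106 TPM against 0.0169, 0.0224 and 0.0341 TPM in CAD. The log2 difference of Col6a5 was -11.99 ± 0.17 (adjusted p = 2.37e-11), and the neighbouring Col6a6 was also higher in N2A (1.85 against 0.00888 TPM). The most abundant was C1ql1 (chr11:102939264-102946688, minus strand), a secreted C1q-like protein of synapses, at 517, 510 and 487 TPM in N2A and 1.69, 1.29 and 1.65 TPM in CAD. Rpl39l, a paralog of a ribosomal protein gene, averaged 43.8 ± 3.73 TPM in N2A with no CAD count, at least 116-fold higher. Its parent gene is highly similar, so a share of these reads may belong elsewhere.

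Other N2A leaders work at membranes and synapses. Sh3gl3, an endophilin gene, stood at 34.4, 31.6 and 35.9 TPM in N2A with 1 count in each CAD library. Ppfia2, which encodes the presynaptic scaffold liprin-alpha-2, averaged 17.8 TPM against 0.0576 TPM in CAD, and the peptidase gene Dpp4 15.7 TPM against 0.00422 TPM. Dcdc2a, a doublecortin-domain gene of the microtubule system, averaged 56.5 TPM against 0.0670 TPM, and the receptor phosphatase gene Ptpru 20.7 TPM against 0.267 TPM.

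The sympathoadrenal circuit was present in both lines. Of 21 tested regulators, 6 were higher in CAD, 2 in N2A and 13 were not called, with a median log2 difference of 0.40, and in +dox soma 2 and 2 were called with a median of -0.05. Hand2, a basic helix-loop-helix factor of the sympathetic lineage, was at 450, 442 and 440 TPM in CAD and 187, 205 and 215 TPM in N2A, and was called higher in CAD (log2 1.15). Every CAD library was above every N2A library. Phox2a (264, 265 and 264 TPM against 196, 207 and 227 TPM) had a log2 difference of 0.39 and was not called. Isl1, another regulator of sympathetic neurons, averaged 113 TPM in CAD and 68.9 TPM in N2A and was not called.

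The GATA factors of the same circuit went the other way. Gata2 was at 27.8, 27.9 and 28.9 TPM in CAD and 66.4, 66.3 and 69.9 TPM in N2A, with a log2 difference of -1.24 ± 0.09 (adjusted p = 7.40e-07). Gata3 was at 4.31, 3.66 and 3.01 TPM against 21, 15.3 and 15.1 TPM (log2 -1.92), while Gata4, which is better known from the heart, was higher in CAD (28.4 against 8.86 TPM, log2 1.62). Mycn, the oncogene amplified in many neuroblastomas, was higher in CAD, at 126, 123 and 132 TPM against 19.1, 21.4 and 25.9 TPM in N2A, a log2 difference of 2.53.

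Genes for noradrenaline synthesis and storage were higher in CAD where they differed. Of 13 tested members of this list, 4 were higher in CAD and 0 in N2A. Th, the rate-limiting enzyme, was low in both lines, at 3.0, 2.82 and 3.59 TPM in CAD and 0.970, 0.759 and 0.585 TPM in N2A (log2 1.95 ± 0.29, adjusted p = 1.45e-04). Dbh, which converts dopamine to noradrenaline, was at 16.6, 20.1 and 21.6 TPM in CAD and 2.53, 1.35 and 2.45 TPM in N2A. Slc18a1, which encodes the vesicular monoamine transporter of chromaffin cells, was at 29.8, 34.4 and 34.6 TPM against 3.16, 2.90 and 1.79 TPM. Ddc, the enzyme between Th and Dbh, averaged 1.18 and 1.36 TPM, overlapped between the lines and was not called. The neuronal transporters Slc18a2 and Slc6a3 were too low to test. Slc6a2, the noradrenaline transporter gene, was tested and not called, and its direction changed between settings. Maoa, which breaks down monoamines, showed the largest difference of the list, with 14.4, 13.9 and 13.4 TPM in CAD and 0.109, 0.121 and 0.0912 TPM in N2A (log2 6.97).

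Of 6 tested receptors for these amines, 3 were higher in CAD and 1 in N2A, and with WT Soma 3 and 3. Drd1, a dopamine receptor, averaged 9.07 ± 0.251 TPM in CAD and 0.194 TPM in N2A, and Drd2 was at 0.775, 0.740 and 0.940 TPM with no count in N2A. Adra2b, an alpha-2 adrenergic receptor, averaged 14.3 TPM against 1.80 TPM.

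Of 15 tested cholinergic genes, 7 were higher in CAD and 1 in N2A, and with WT Soma 3 and 2 of 11. Slc18a3, the vesicular acetylcholine transporter, was at 13.4, 15.2 and 15.4 TPM in CAD with no count in the 3 N2A libraries, at least 129-fold higher. Chat, the enzyme that makes acetylcholine and whose gene encloses Slc18a3 on the same strand, was too low to test in either line, as was the choline transporter Slc5a7. Bche, a cholinesterase, was at 36.9, 42.1 and 29.5 TPM in CAD and at most 0.0652 TPM in N2A. Among the nicotinic receptor subunits, Chrna3, a subunit of ganglionic receptors, was at 249, 297 and 296 TPM in CAD and 73.0, 72.8 and 69.1 TPM in N2A. Chrna7 was the member higher in N2A (2.60 against 9.61 TPM).

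Glutamatergic genes had 8 of 18 tested members higher in CAD and 0 higher in N2A, and with WT Soma 7 and 4 of 16. Gria2, an AMPA receptor subunit, was at 33.6, 37.3 and 33.1 TPM in CAD and 3.70, 3.69 and 3.53 TPM in N2A, a log2 difference of 3.29. Gria3, on the X chromosome, was at 14.8, 16.1 and 15.7 TPM against 0.231, 0.0722 and 0.101 TPM. The vesicular glutamate transporter Slc17a7 averaged 1.75 TPM in CAD and 0.280 TPM in N2A, and Slc17a6 was too low to test. Of 12 tested GABAergic genes, 3 were higher in CAD and 2 in N2A, with a median log2 difference of -0.56, and of 7 tested GABA-A receptor subunits 0 and 2. Slc32a1, which loads GABA and glycine into vesicles, averaged 7.54 TPM in CAD against 0.0107 TPM in N2A, while the synthetic enzymes Gad1 and Gad2 were not tested. CAD soma held transcripts for vesicular transporters of acetylcholine, GABA, glutamate and monoamines without a tested level of Chat, Gad1 or Gad2.

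N2A cells were higher for 3 of 5 tested serotonergic genes. Htr3a, an ion channel gated by serotonin, was at 81.2, 87.3 and 97.4 TPM in N2A and 34.5, 37.0 and 37.9 TPM in CAD. Tph1, an enzyme of serotonin synthesis, averaged 2.17 TPM against 0.195 TPM. Fev, the Pet1 factor of serotonergic neurons, averaged 4.77 TPM against 0.301 TPM, but it was at 11.2 TPM in WT Soma, above both.

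Peptide and granule genes split. Npy, neuropeptide Y, was at 23.6, 25.3 and 28.6 TPM in CAD with no count in N2A, at least 40.1-fold higher, and Vip averaged 11.6 TPM against 0.210 TPM. Chgb, the granule protein chromogranin B, was abundant in both lines, at 1542, 1735 and 1705 TPM in CAD and 725, 822 and 731 TPM in N2A. Scg5, a chaperone of a prohormone convertase, was higher in N2A, at 301, 335 and 364 TPM against 102, 116 and 118 TPM. Over the list of 19 tested genes, 4 (21.1%) were higher in CAD and 3 (15.8%) in N2A, against 11.4% and 13.3% of all genes. With WT Soma the counts were 3 and 5.

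**Figure D2:**
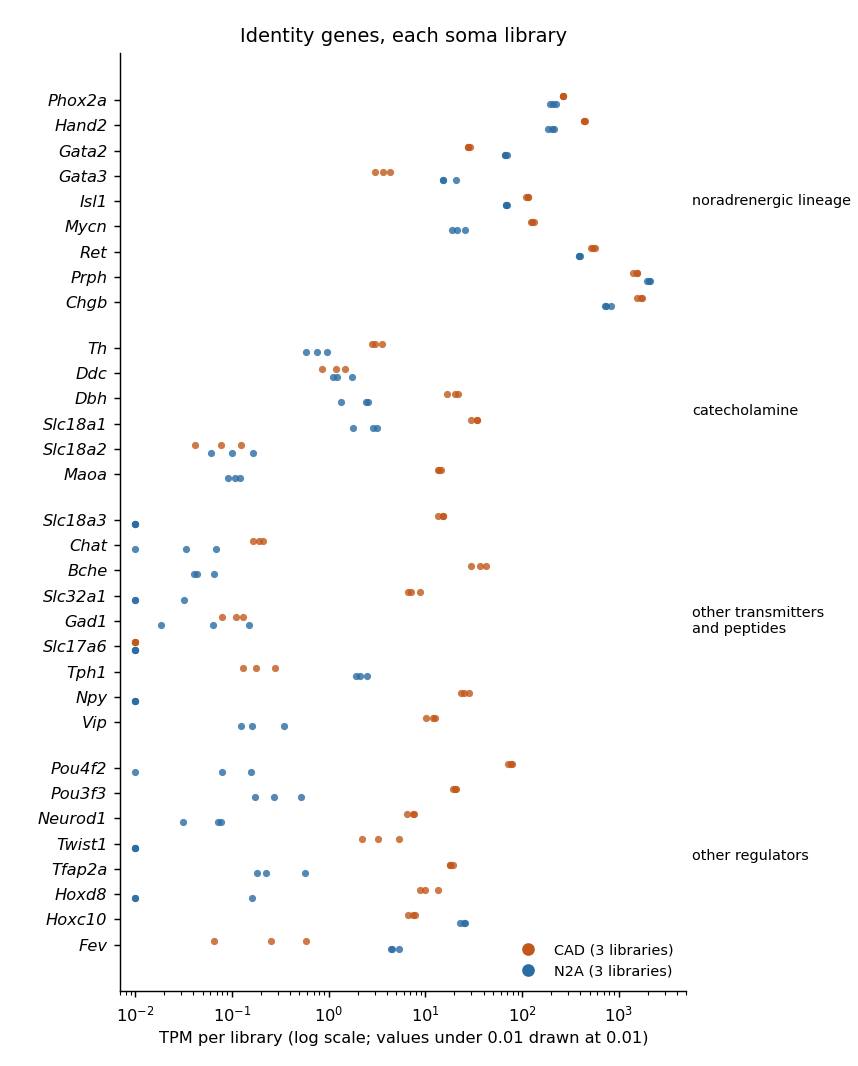
TPM of genes for transmitter systems, lineage regulators and position in each of the 3 CAD and 3 N2A libraries, on a log scale, with 1 dot per library. Phox2a lies close in both lines (264 to 265 TPM in CAD, 196 to 227 TPM in N2A), whereas Slc18a3 and Npy have counts in the CAD libraries alone.

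General neuronal markers were held by both lines. Of 24 tested, 7 were higher in CAD, 3 in N2A and 14 were not called. Prph, the peripherin of peripheral neurons, ranked 17 by level in N2A in a listing that holds no mitochondrially encoded gene. It averaged 2037 ± 75.7 TPM there, against 1493 ± 79.3 TPM in CAD, and was not called. Gap43, a growth cone protein, was at 441, 445 and 450 TPM in CAD and 109, 109 and 131 TPM in N2A. Nrcam, an adhesion molecule of the axon, averaged 27.9 TPM in CAD and 0.306 TPM in N2A, and Ncam1 averaged 36.7 TPM in CAD and 113 TPM in N2A, so 2 genes of the same superfamily were higher in opposite lines. The neurofilament genes Nefl and Nefm were too low to test, while Ina (200 against 68.0 TPM) and Nefh (79.5 against 29.0 TPM) were higher in CAD. Among 32 tested genes of synaptic vesicle release, 5 were higher in CAD and 4 in N2A. These shares of 15.6% and 12.5% lie near the 11.4% and 13.3% of all genes. Rab3a, which primes vesicles, averaged 70.8 TPM in CAD and 14.3 TPM in N2A, and Unc13a, the priming factor Munc13-1, averaged 40.1 TPM in CAD and 107 TPM in N2A.

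Genes of the neural crest and of the mesenchymal neuroblastoma state were higher in CAD for 12 of 24 tested members and in N2A for 2, with a median log2 difference of 1.01. Twist1 was at 3.24, 5.37 and 2.24 TPM in CAD with no N2A count, at least 16.7-fold higher, and its relative Twist2 averaged 3.56 TPM against 0.0236 TPM. Msx1, a homeobox gene of the neural plate border, averaged 8.52 ± 0.849 TPM against 0.0184 TPM. Tfap2a, a master factor of the neural crest, was at 19.3, 17.9 and 18.1 TPM in CAD and 0.574, 0.226 and 0.181 TPM in N2A. The exceptions were Fn1, fibronectin (28.4 in CAD against 89.1 TPM in N2A), and Pax3 (0.245 against 1.01 TPM). CAD thus carried higher transcripts of Hand2 beside those of Twist1, Msx1 and Tfap2a in the same bulk samples. The noradrenergic circuit as a whole was not higher there, since Gata2 and Gata3 were higher in N2A and Phox2a was not called.

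Other transcription factor families held large differences in some members. Pou4f2, a regulator of retinal ganglion and sensory neurons, was at 76.2, 78.2 and 72.4 TPM in CAD and 0.156, 0 and 0.0782 TPM in N2A (log2 9.83 ± 0.23, adjusted p = 1.69e-10), while its paralog Pou4f1 averaged 14.8 and 15.9 TPM and overlapped. Of 11 tested POU factors, 4 were higher in CAD and 0 in N2A, and of 8 tested LIM homeodomain factors, 4 and 0. Lhx2, a forebrain factor, was at 13.8, 14.4 and 15.1 TPM against 1.59, 1.73 and 1.86 TPM. Neurod1, which drives neuronal differentiation, averaged 7.17 TPM in CAD against 0.0599 TPM. In the basic helix-loop-helix family, 12 of 31 tested were higher in CAD and 2 in N2A. The SOX family held a pair in opposite lines, with Sox5 at 2.77 TPM in CAD against 0.0649 TPM and Sox6 at 0.0434 TPM in CAD against 2.95 TPM.

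Hox genes marked different clusters. Of 39 annotated, 15 were tested, 6 were higher in CAD and 2 in N2A. The HoxD cluster was read mostly in CAD, where Hoxd8 was at 8.91, 13.4 and 9.91 TPM with 1 count in N2A, and Hoxd3, Hoxd4, Hoxd10 and Hoxd11 were also higher in CAD at averages of 0.742 to 1.72 TPM. The HoxC cluster was read in both lines. Hoxc9 averaged 19.2 TPM in CAD and 20.2 TPM in N2A and was not called (log2 -0.01), while Hoxc10 (7.38, 6.62 and 7.85 against 23, 25 and 25.8 TPM) and Hoxc6 (18.8 against 35.4 TPM) were higher in N2A. Transcripts of trunk position were therefore present in CAD beside those of Lhx2.

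Wnt and hedgehog signalling genes were higher in CAD for 17 of 39 tested members and in N2A for 6, with a median log2 difference of 0.86. In +dox soma, where TDP-43 was depleted, the counts were 11 and 7 of 37 and the median was 0.09. Of the ligands, Wnt11 was at 114, 113 and 143 TPM in CAD and 2.98, 2.89 and 2.38 TPM in N2A (log2 5.26 ± 0.16, adjusted p = 1.02e-09), and Wnt5a was higher in N2A (1.21 against 7.47 TPM). The Wnt amplifier Rspo1 averaged 10.2 TPM in CAD against 0.330 TPM. Of the receptors, Fzd1 (3.75 against 0.00604 TPM) and Fzd9 (4.37 against 0.0506 TPM) were higher in CAD, and Fzd3 (12.6 against 31.5 TPM) and Fzd4 (3.84 against 10.1 TPM) in N2A. Targets and effectors split as well: Axin2, a common readout of canonical Wnt signalling, was at 5.37, 4.78 and 5.01 TPM in CAD and 1.36, 1.62 and 2.04 TPM in N2A, Lef1 was higher in CAD (20.5 against 9.75 TPM) and Tcf7l2 higher in N2A (1.01 against 4.37 TPM). The secreted inhibitors Dkk1 (134 against 52.6 TPM, a log2 difference of 1.31 that was -0.16 in +dox soma) and Sfrp2 (4.30 against 0.0762 TPM) were higher in CAD.

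Of 25 tested Notch genes, 7 were higher in CAD and 3 in N2A, and in the somata after doxycycline (+dox) 4 and 5 of 27. The receptor gene Notch2 averaged 22.2 TPM in CAD and 7.23 TPM in N2A, and Hes1, a direct Notch target, was at 4.92, 7.07 and 4.97 TPM against 0.533, 0.542 and 0.499 TPM, which was 1 count in each N2A library. The ligand Dll1 went the other way (0.893 against 8.23 TPM). In the BMP and TGF-beta list, 8 of 36 (22.2%) were higher in CAD and 2 (5.56%) in N2A, and in +dox soma 9 and 6 of 37. The CAD-higher genes here included the ligand Bmp7 (18.1, 19.3 and 21.8 against 0.883, 0.246 and 0.249 TPM) and the receptor Bmpr1b (10.6 against 0.0943 TPM).

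Growth factors and their receptors split evenly, with 10 of 39 tested (25.6%) higher in CAD and 9 (23.1%) in N2A. The shares of all genes were 11.4% and 13.3%. Among ligands, the neurotrophin Bdnf was at 7.68, 8.34 and 8.60 TPM in CAD and 0.197, 0.185 and 0.200 TPM in N2A. Nrg1, neuregulin, was at 17.9, 16.8 and 16.3 TPM in N2A and 0.177, 0.0973 and 0.0975 TPM in CAD (log2 -7.61), and Artn, a ligand of the Ret system, was at 1.72, 0.885 and 2.19 TPM in N2A with no CAD count. Among receptors, Ret itself averaged 541 TPM in CAD and 391 TPM in N2A and was not called. Fgfr1 (112 against 38.0 TPM) and Tyro3 (85.6 against 27.7 TPM) were higher in CAD and Pdgfrb (1.46 against 9.70 TPM) in N2A.

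Ion channels differed in many members. Of 51 tested potassium channel genes, 21 were higher in CAD and 10 in N2A, and of 20 tested calcium channel genes, 8 and 2. With WT Soma in place of CAD Soma -dox the counts were 12 and 11 of 38 and 5 and 7 of 18, so the lean to CAD was not seen there. Cacna1h, a T-type calcium channel, was at 47.3, 40.8 and 39.9 TPM in CAD and 0.0972, 0.0725 and 0.251 TPM in N2A (log2 8.29 ± 0.14, adjusted p = 3.86e-11), and its paralog Cacna1i was higher in N2A (6.75 against 16 TPM). Kcnt1, a sodium-activated potassium channel, was at 58.8, 62.8 and 62.3 TPM in CAD and 1.0, 2.24 and 2.54 TPM in N2A. Kcnma1, the large-conductance calcium-activated channel, was higher in N2A (0.680 against 6.37 TPM).

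Several basement membrane genes of the extracellular matrix were higher in N2A. Of 10 tested laminins, 6 were higher in N2A and 1 in CAD, with a median log2 difference of -1.65. Lamb2 was at 25.5, 22 and 28.3 TPM in N2A and 1.43, 2.08 and 1.26 TPM in CAD, and Lama5 averaged 30.4 TPM against 5.35 TPM. The collagen IV pair, which share a promoter region, moved alike, with Col4a1 at 66.4, 62.5 and 61.5 TPM in N2A and 5.72, 5.51 and 4.58 TPM in CAD, and Col4a2 at 163, 157 and 154 TPM against 11.5, 10.8 and 12.5 TPM. Collagens as a family were split, with 7 of 29 tested higher in each line, and Col18a1, the source of endostatin, was higher in CAD (22.8 against 3.21 TPM). Of the integrins, Itga1, a subunit of a collagen receptor, was at 43.5, 40.4 and 40.2 TPM in CAD and 5.05, 4.43 and 3.74 TPM in N2A, while Itga2 (1.13 against 7.13 TPM) and Itgb3 (1.33 against 8.29 TPM) were higher in N2A. The shared beta subunit Itgb1 averaged 642 and 888 TPM and was not called.

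Guidance and adhesion genes showed the same mixture. Efnb1, an ephrin ligand, was at 12.4, 11.0 and 13.2 TPM in CAD with no N2A count, at least 180-fold higher. The Eph receptor gene Ephb4 averaged 23.7 TPM against 1.88 TPM. The type II cadherins Cdh11 (10.6 against 0.0565 TPM) and Cdh6 (4.47 against 0.0300 TPM) were higher in CAD. In N2A, the semaphorin and VEGF co-receptor Nrp2 was at 65.8, 61.4 and 58.4 TPM against 5.24, 5.70 and 5.67 TPM in CAD, and the contactin Cntn3 averaged 21.7 TPM against 0.454 TPM.

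Imprinted genes, which are read from the maternal or the paternal copy, were called in both directions. Of 34 tested, 7 (20.6%) were higher in CAD and 8 (23.5%) in N2A, against 11.4% and 13.3% of all genes. Gnas, which encodes the stimulatory G protein subunit, ranked 2 by level in CAD soma in a listing that holds no mitochondrially encoded gene. Gnas was at 4966, 5164 and 5458 TPM, against 863, 878 and 941 TPM in N2A (log2 2.53 ± 0.10, adjusted p = 7.68e-09). Magel2, of the Prader-Willi region on chromosome 7, was at 82.7, 79.1 and 85.5 TPM in CAD and 0.714, 0.887 and 0.746 TPM in N2A, and its neighbour Snrpn averaged 118 TPM against 41.7 TPM. On chromosome 12, Meg3 (0.0529 against 0.585 TPM) and Rian (1.96 against 6.74 TPM) were higher in N2A at low levels. MAGE genes, normally read in germ cells, also split, with Magea8 at 0.199 TPM in CAD and 22.2 TPM in N2A.

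The X-linked noncoding RNA Xist, which silences an X chromosome in female cells, was read in both lines, at 266, 252 and 203 TPM in CAD and 130, 125 and 103 TPM in N2A (log2 0.93, not called). The gene overlaps its antisense partner Tsix, and the counting is not stated to use strand. The Y-linked genes Ddx3y and Eif2s3y held at most 8 counts in any of the 6 libraries and were not tested. Kdm5d, higher in N2A (0.825 against 2.56 TPM), and Uty (2.81 and 6.06 TPM, overlapping) have close X-linked paralogs, so their reads are uncertain.

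Genes of antigen presentation were higher in N2A for 9 of 24 tested members and in CAD for 2, with a median log2 difference of -0.84. B2m, the light chain of class I molecules, was at 160, 184 and 234 TPM in CAD and 560, 604 and 683 TPM in N2A. The class I heavy chains H2-K1 (111 against 278 TPM) and H2-D1 (84.8 against 380 TPM), whose sequences are close to each other, went the same way, as did Nlrc5, their transcriptional activator (0.315 against 2.93 TPM). Cd74, the invariant chain of class II molecules, was at 1.58, 2.20 and 1.70 TPM in CAD and 128, 125 and 145 TPM in N2A (log2 -6.20 ± 0.13, adjusted p = 1.05e-10). Interferon response genes had 10 of 35 higher in N2A and 2 in CAD, although the median of the list was 0.08. Ifitm3, a restriction factor for virus entry, averaged 7.54 TPM in CAD and 41.5 TPM in N2A, whereas Tmem173 (STING), a sensor of the same system, averaged 39.2 TPM and 11.9 TPM. Beside these, immune cell markers were near the floor: 1 of 3 tested was higher in N2A (Ptprc, 0.597 against 1.60 TPM), the list summed to 2.12 to 3.54 TPM in CAD and 5.11 to 6.75 TPM in N2A, and the macrophage receptor Csf1r had at most 1 count in a library. The part of such cells in these values was not tested.

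The integrated stress response had the widest gap between the shares higher in each line among the lists with at least 20 tested genes. It is a programme in which the kinases of eIF2 favour translation of Atf4, and ATF4 with its partners turns on genes of amino acid supply. Of 28 tested genes, 16 were higher in N2A and 1 in CAD, with a median log2 difference of -1.28 against -0.07 over all genes. Among the regulators, Atf3 was at 22.6, 21.9 and 24.9 TPM in N2A and 7.0, 5.85 and 6.93 TPM in CAD, Ddit3 (CHOP) at 141, 130 and 132 TPM against 46.3, 37.0 and 48.4 TPM, and Trib3, a pseudokinase that restrains ATF4, at 139, 127 and 140 TPM against 48.3, 40.5 and 49.7 TPM. In +dox soma the log2 differences of Atf3 and Ddit3 were -0.15 and -0.74, against -1.78 and -1.61 here. Of the 28 list genes tested there, 10 were higher in N2A and 0 in CAD. Atf4 itself, which is controlled mainly at translation, averaged 482 TPM in N2A and 296 TPM in CAD (log2 -0.69, not called).

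Among the amino acid genes, the transporters Slc7a5 (226 in CAD against 695 TPM in N2A), Slc7a3 (28.7 against 133 TPM) and Slc7a11 (11.6 against 25.3 TPM) and the serine synthesis enzyme Phgdh (88.9 against 234 TPM) were higher in N2A. Asns, asparagine synthetase and a classical ATF4 target, was at 418, 386 and 429 TPM in CAD and 484, 460 and 493 TPM in N2A and was not called (log2 -0.15). The enzymes that turn homocysteine into cysteine went in opposite directions. Cbs, the first step, was at 28.2, 29.4 and 28.5 TPM in CAD and 4.87, 4.98 and 4.38 TPM in N2A (log2 2.52 ± 0.09, adjusted p = 4.78e-09), and Cth, the second, was at 4.39, 3.70 and 4.24 TPM in CAD and 70.6, 64.6 and 62.4 TPM in N2A (log2 -3.93 ± 0.09, adjusted p = 1.69e-10).

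ATF4 and its partners bind a composite element whose core can be written TGATGNAA. RefSeq promoters of GRCm38.p6, from 250 bases before to 50 bases after a gene's start, were searched on both strands. The element was in 3.97% of 32851 promoters of all genes. It was in 9 of 30 promoters of the stress list (25 genes) and in 4 of 13 promoters of its N2A-higher genes (11 genes). These promoters did not cover every N2A-higher gene of the list. The list includes known ATF4 targets such as Asns, so its share does not test a link to ATF4. The matches of 3 genes that were higher in N2A and of Asns, which was not called, are shown because they place the same element beside both outcomes. Capitals mark the element or its reverse complement.
Atf3, chr1:191183425-191183454, minus strand: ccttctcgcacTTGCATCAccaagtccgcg
Nupr1, chr7:126625562-126625591, minus strand: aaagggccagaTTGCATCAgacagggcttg
Slc7a11, chr3:50443661-50443690, minus strand: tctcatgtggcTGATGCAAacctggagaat
Asns, chr6:7693214-7693243, minus strand: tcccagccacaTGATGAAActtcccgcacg
A match is a description of these letters, and binding was not measured.

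Metallothionein genes, which encode small metal-binding proteins, were higher in CAD. Mt1 was at 24.1, 17.1 and 21.7 TPM in CAD and 1.12, 0.289 and 0.489 TPM in N2A, Mt2 at 12.4, 11.5 and 13.6 TPM with no N2A count (at least 15.3-fold higher), and Mt3, the neuronal member, at 16.6, 13 and 12.7 TPM against 0.843, 0.551 and 0.736 TPM. The 3 genes are neighbours on chromosome 8 and did not overlap between the lines. Metal-responsive transcription of Mt1 and Mt2 runs through short elements with the core TGCACNC or TGCGCNC. Neither binding to these elements nor a response to metal was measured. Of all promoters, 25.7% held the core in either form and 0.517% held it 4 or more times, and Mt2 held 4 matches, Mt1 held 3 and Mt3 held 1. A match of each gene is shown, with the core or its reverse complement in capitals, because the 3 promoters differ in number of matches and not in direction of expression.
Mt1, chr8:94179055-94179084, plus strand: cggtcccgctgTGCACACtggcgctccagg
Mt2, chr8:94172557-94172586, plus strand: ggggggagggcGTGTGCAggctctgtccca
Mt3, chr8:94152623-94152652, plus strand: cgggacagcagTGCACACacacggagagca

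Hypoxia and glycolysis genes did not move as a group: 5 of 32 tested (15.6%) were higher in CAD and 7 (21.9%) in N2A. Egln3, an oxygen-sensing hydroxylase, was at 58.2, 56.5 and 56.5 TPM in CAD and 0.194, 0.171 and 0.331 TPM in N2A (log2 7.91 ± 0.15, adjusted p = 6.33e-11). The glucose transporter gene Slc2a1 was higher in N2A, at 96.4 TPM against 29.9 TPM, as was the hexokinase gene Hk2 (56.0 against 16.4 TPM). Gapdh, often used as a reference gene, was at 1942, 1864 and 1926 TPM in CAD and 776, 798 and 792 TPM in N2A, and its log2 difference, fitted to counts, was 1.95, which is larger than the ratio of these TPM means gives. The many processed pseudogenes of Gapdh can share its reads. In cholesterol synthesis, 3 of 24 tested were higher in CAD, among them Hmgcs1 (473 against 136 TPM), and 0 in N2A. The CAD share of 12.5% lies near the 11.4% of all genes.

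Cell cycle genes were higher in N2A for 13 of 44 tested members and in CAD for 2, with a median log2 difference of -0.29. Mki67, the Ki-67 proliferation antigen, was at 3.20, 2.72 and 2.97 TPM in CAD and 10.9, 10.2 and 8.41 TPM in N2A, and Top2a averaged 7.76 TPM and 21.3 TPM. E2f2, a driver of S phase entry, had the largest difference (0.623 against 10.4 TPM, log2 -3.72). Ccnd1 and the inhibitor Cdkn1a were not called, the second overlapping between the lines (59.6 and 57.2 TPM). Among 30 tested p53 pathway genes, 6 were higher in N2A and 2 in CAD. The death receptor Fas averaged 3.14 TPM in N2A with 1 count in each CAD library, and Plk2, a stress-induced kinase, was at 17.1, 16.5 and 15.2 TPM in CAD against 0.0467, 0.0947 and 0.164 TPM in N2A.

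Of 39 tested splicing and RNA-binding factors, 5 were higher in CAD and 4 in N2A, shares of 12.8% and 10.3% that lie near the 11.4% and 13.3% of all genes. Rbfox1 (5.75 against 0.546 TPM) and Celf4 (36.3 against 5.04 TPM) were higher in CAD and Nova2 (13.9 against 38.4 TPM) in N2A. The 3 RNAs whose localization the study followed as TDP-43 targets were not called between the somata. Diras1, a Ras-like GTPase gene, was at 9.97, 10.2 and 10.2 TPM in CAD and 18, 17.3 and 18.3 TPM in N2A (log2 -0.74). Ksr2, a scaffold of the MAP kinase pathway, was at 4.07, 4.03 and 3.05 TPM against 3.56, 2.04 and 1.66 TPM (log2 0.82, with TPM that overlapped), and Wasf3, an actin regulator, averaged 15.8 and 21.8 TPM (log2 -0.46). Each passed the adjusted p without reaching the minimum difference.

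**Figure D3:**
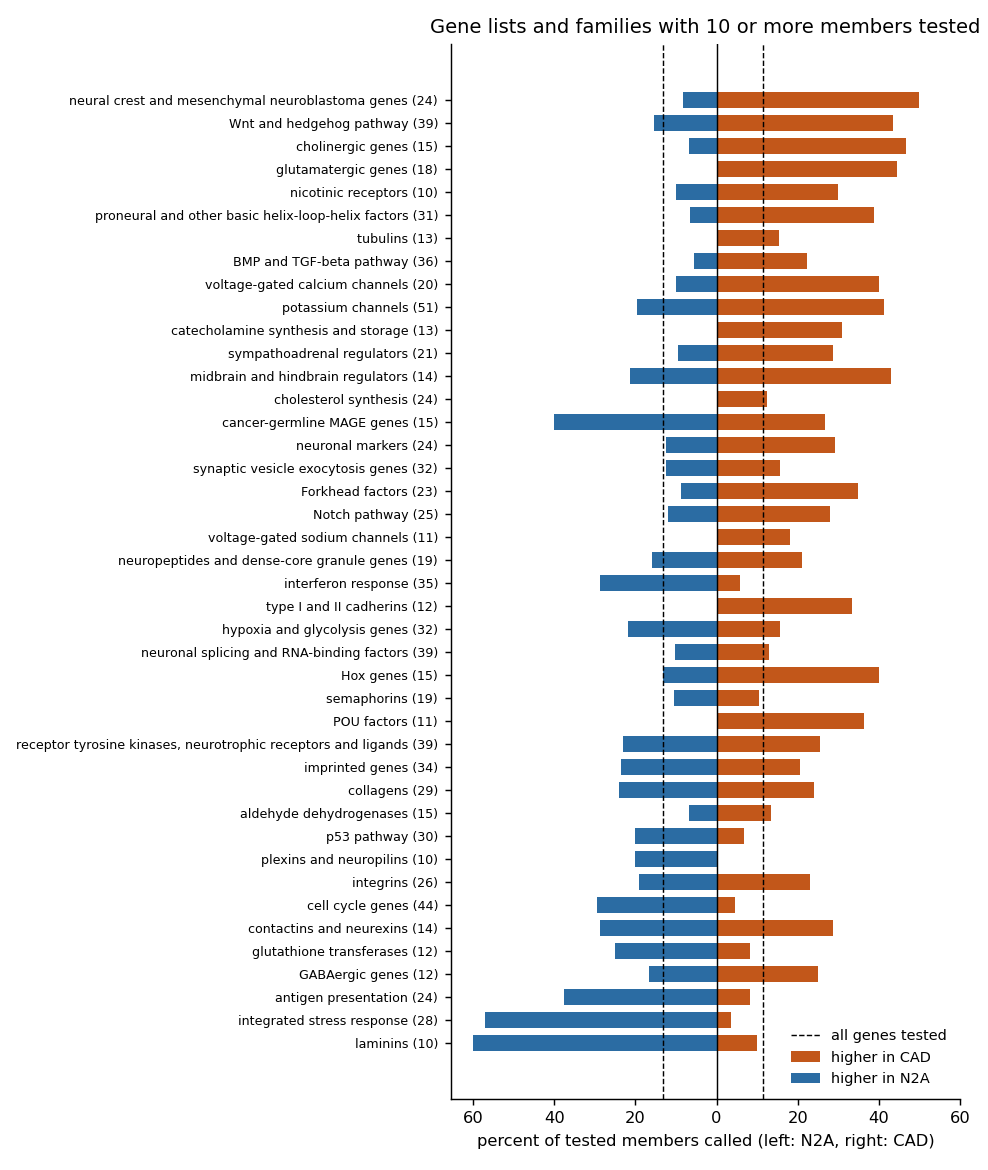
Percent of the tested members of each gene list or family (those with at least 10 tested) called higher in CAD and higher in N2A, with the 11.4% and 13.3% of all tested genes drawn as lines. Cholinergic genes (7 and 1 of 15) lie far to the CAD side, and the integrated stress response (1 and 16 of 28) and laminins (1 and 6 of 10) far to the N2A side.

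Markers of other cell types were checked in the same libraries. Glial identity genes were near 0, with Olig2 without a count in any library and Gfap, Aqp4, Mog and Sox10 too low to test, and of 7 tested glial-list genes 1 was higher in each line (summed levels of 258 to 307 TPM in CAD and 181 to 195 TPM in N2A). Of 8 tested fibroblast-list genes, 4 were higher in CAD and 3 in N2A (30.1 to 34.9 TPM and 28.4 to 30.5 TPM summed). The part of such cells in the results was not tested. Col1a1 averaged 2.09 and 2.14 TPM and Col3a1 had at most 1 count. Col1a2 was called higher in CAD (log2 2.32), though not with length-scaled counts (1.15). Acta2, smooth muscle actin, was at 9.92, 9.62 and 12.7 TPM in N2A with no CAD count. The endothelial list summed to 6.61 to 8.09 TPM in CAD and 15.7 to 19.2 TPM in N2A, with 3 of 5 tested genes higher in N2A, among them Vwf (0.461 against 4.53 TPM), while Pecam1 averaged 4.23 TPM in each. Muscle regulators Myod1 and Myog were at or near 0, and Tnnt2, a cardiac troponin gene, averaged 21.4 TPM in N2A against 0.390 TPM. Of 2 tested epithelial genes 1, the keratin gene Krt8, was higher in CAD and 0 in N2A (1.23 to 2.57 TPM and 0.431 to 0.584 TPM summed), and Epcam and Cdh1 lay under 0.3 TPM in every library. Of the neuronal markers, Prph, Gap43 and Chgb were abundant in both lines and Nefl and Nefm were near 0 in both.

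Calls were made on every chromosome. The median log2 difference was -0.54 on chromosome 12, where 24.3% of 687 tested genes were higher in N2A, and -0.39 on chromosome 14 (19.8% of 657). It was 0.24 on chromosome 18, 0.23 on chromosome 16 and 0.20 on chromosome 19. The X chromosome had a median of 0.03 but many calls in each direction, 21% of 590 genes higher in CAD and 16.9% in N2A. Under upper-quartile scaling the medians of chromosomes 12 and 14 were -0.70 and -0.55 and those of chromosomes 16 and 18 were 0.08 each.

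**Figure D4:**
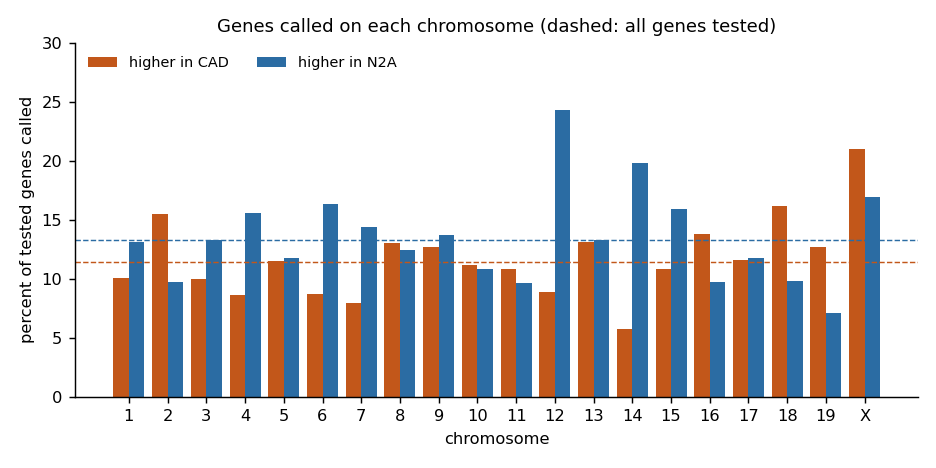
Percent of the tested genes on each autosome and the X chromosome that were called higher in CAD and higher in N2A (paired bars), with the 11.4% and 13.3% of all tested genes as dashed lines. The N2A bar is tallest on chromosome 12 (24.3%) and the CAD bar is tallest on X (21%).

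The same contrast was read in other libraries of the lines. In the somata after doxycycline (+dox, TDP-43 depleted), where 1666 genes (9.60%) of 17354 were higher in CAD and 1859 (10.7%) in N2A, 59.6% of the genes called here were called in the same direction and 1 in the other. These calls were 75.3% of all calls in +dox soma. In the neurites without doxycycline, where 14.4% and 11.9% of 15402 genes were higher in CAD and N2A, 64.3% of the soma calls were made in the same direction and 5 in the other. By the study's methods, neurites are the other fraction of the cells whose soma was scraped off, so they are not separate cultures. The +dox soma libraries are separate libraries but not stated to be separate culture runs. The confounding of line with culture run therefore remains in both sets. Slc18a3, Npy, Pou4f2, Cacna1h, Col6a5, C1ql1 and Cth kept their side in both sets, with log2 differences in +dox soma of 8.96, 7.97, 8.29, 7.30, -12.12, -9.17 and -3.95.

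The WT Soma libraries (3, of 12379715 to 15870647 estimated counts) came from another experiment on CAD cells, in which the study's methods say the transgene was induced with doxycycline. Against the same 3 N2A libraries, 13.3% of 16486 genes were higher in these CAD cells and 23.6% in N2A. This comparison shares its N2A libraries with the main one. Set against each other, the CAD Soma -dox and WT Soma libraries differed at 1450 of 15411 genes (9.41%) higher in CAD Soma -dox and 792 (5.14%) higher in WT Soma. Differences of the size called between the lines therefore also arose between 2 CAD experiments, which differ in genotype, doxycycline treatment, clone, run and depth.

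Several lists changed side or lost their lean with these CAD libraries. Neuronal markers had 3 of 24 higher in CAD and 9 in N2A, against 7 and 3 with CAD Soma -dox, and nicotinic receptors 0 and 2 of 7 against 3 and 1 of 10. Collagens had 4 and 12 of 26, and growth factors and their receptors 6 and 13 of 36. For the cell cycle list, with WT Soma in place of CAD Soma -dox, 27 of 44 tested members were higher in CAD and 1 in N2A, with a median log2 difference of 1.58. Top2a averaged 73.8 TPM in WT Soma, against 7.76 TPM in CAD Soma -dox and 21.3 TPM in N2A, and Mki67 averaged 29.3 TPM against 2.97 and 9.86 TPM. The higher level of these genes in N2A thus held against the CAD Soma -dox libraries and not against WT Soma. The integrated stress response list kept its side, with 18 of 28 members higher in N2A and 1 in CAD with WT Soma, 18 and 1 in the neurites, and 10 and 0 in +dox soma.

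**Figure D5:**
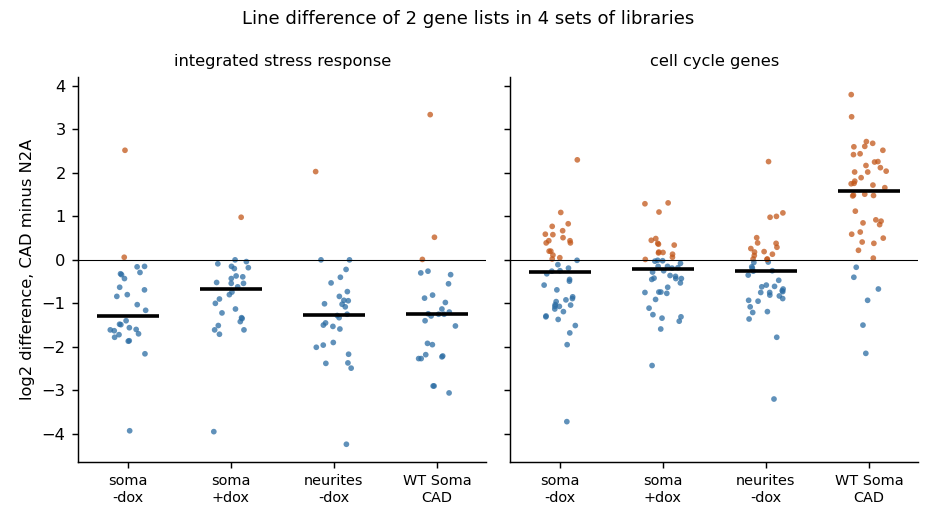
Fitted log2 differences (CAD minus N2A) of the tested integrated stress response and cell cycle genes in 4 sets of libraries: -dox soma, +dox soma, -dox neurites, and WT Soma against N2A soma. Each dot is a gene and the bar is the median, which for the stress list lies at -1.28, -0.68, -1.27 and -1.25 and for the cell cycle list at -0.29, -0.22, -0.26 and 1.58.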

How the data were processed

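PolyA RNA of soma fractions was sequenced, 3 libraries per line. Per the labels and methods, the authors trimmed adapters with cutadapt and quantified reads with Salmon. The deposited estimated counts (expected counts) and TPM are per transcript, and the study names mm10 with Gencode version 17. Tool versions are not given in the sources used here. Transcripts were summed to genes with GENCODE vM21 (GRCm38), and at most 0.0994% of counts had no gene. Short RNA classes took a large, varying share of the deposited TPM, so the printed TPM is rescaled over the other genes, a choice made after seeing the data.

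Counts were rounded, filtered (filterByExpr, minimum count 10), scaled by TMM and tested with edgeR 4.0.16 in R 4.3.3 (quasi-likelihood test, Benjamini-Hochberg adjustment over all genes), coded CAD minus N2A, on the 6 libraries. Fitted differences come from counts, and TPM ratios can differ from them through transcript lengths. The test was checked on simulated data. Lower bounds on folds use a floor of 3 counts per library and cover counting error only. Same-numbered replicates of the lines deviated together (correlations of 0.454, 0.106 and 0.324, against -0.386 to 0.109 for different numbers), a pairing taken from the label numbers; replicate 2 of N2A correlated as well with replicate 3 of CAD. DESeq2 1.42.0, other scalings, filters and left-out libraries were alternatives.

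The members and gene lists were chosen with earlier results of these data known. Named genes were the 15 largest called differences in each direction (at least 10 deposited TPM in the higher line, no overlap between libraries, no pseudogenes or immunoglobulins), up to 8 called members of a list with the largest differences, defining cell markers, Tardbp, Diras1, Ksr2 and Wasf3. Other list members named, among them most that were not called, were chosen after their values were seen. Promoter sequences are from RefSeq, GRCm38.p6. Some genes are not reported here by name.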

Additional observations from a re-analysis of the deposited data

Results flagged for a closer look

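The line difference was also fitted with and without doxycycline over the 12 soma libraries, with a test of the difference between the fits (edgeR interaction term, adjusted over 19324 genes). It passed for 1337 genes, 432 of them among the 4456 called here. The values are fitted log2 differences, CAD minus N2A, and doxycycline and library set cannot be told apart.

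Among transmitter, receptor and granule genes were Adra2b at 3.67 with doxycycline against 3.01 without (adjusted p = 0.00469), Chrm3 at 0.84 with doxycycline against 2.67 without (adjusted p = 0.00240) and Chrna3 at 0.72 with doxycycline against 1.97 without (adjusted p = 1.19e-04). Others were Dbh at 5.18 with doxycycline against 3.90 without (adjusted p = 0.00289), Gria2 at 2.22 with doxycycline against 3.29 without (adjusted p = 0.00179) and Htr3a at -2.21 with doxycycline against -1.26 without (adjusted p = 0.00290). The test also passed for Slc18a1 at 2.72 with doxycycline against 3.75 without (adjusted p = 0.00318), Cacng4 at 0.84 with doxycycline against 1.62 without (adjusted p = 0.00506) and Celf4 at 2.00 with doxycycline against 2.99 without (adjusted p = 0.00126). Further genes were Unc13a at -0.45 with doxycycline against -1.50 without (adjusted p = 1.68e-04) and Ppp1r9a at -1.48 with doxycycline against -1.97 without (adjusted p = 0.00597).

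Among regulators and signalling genes were Phox2a at -0.54 with doxycycline against 0.39 without (adjusted p = 0.00374), Tbx2 at 0.19 with doxycycline against 1.32 without (adjusted p = 1.83e-04) and Hey2 at 3.55 with doxycycline against 1.95 without (adjusted p = 0.00490). Others were Notch2 at -0.11 with doxycycline against 1.63 without (adjusted p = 5.75e-07), Igf2r at 1.40 with doxycycline against 2.69 without (adjusted p = 1.45e-04) and Slit1 at 0.07 with doxycycline against -1.53 without (adjusted p = 1.74e-05). The test also passed for Ksr2 at -0.86 with doxycycline against 0.82 without (adjusted p = 3.49e-05) and Tardbp at -0.78 with doxycycline against 0.06 without (adjusted p = 1.94e-04).

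Among stress, immune and cell cycle genes were Atf3 at -0.15 with doxycycline against -1.78 without (adjusted p = 7.06e-05), Cbs at 0.98 with doxycycline against 2.52 without (adjusted p = 5.16e-06) and Ndrg1 at -0.66 with doxycycline against -1.97 without (adjusted p = 9.42e-05). Others were Rsad2 at -0.96 with doxycycline against -2.55 without (adjusted p = 0.00436), Bub1 at -0.38 with doxycycline against -1.29 without (adjusted p = 0.00436) and E2f2 at -2.43 with doxycycline against -3.72 without (adjusted p = 1.21e-04). The test also passed for Gtse1 at -0.74 with doxycycline against -1.92 without (adjusted p = 0.00374) and Mki67 at -0.63 with doxycycline against -1.68 without (adjusted p = 1.40e-04).

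Among adhesion, matrix, cytoskeletal and marker genes were Anxa6 at 0.34 with doxycycline against 1.02 without (adjusted p = 5.47e-04), Cdh5 at -3.92 with doxycycline against -0.98 without (adjusted p = 0.00165) and Cdh6 at 4.88 with doxycycline against 7.13 without (adjusted p = 0.00298). Others were Dcdc2a at -4.83 with doxycycline against -8.65 without (adjusted p = 0.00258), Itga2 at -3.85 with doxycycline against -2.77 without (adjusted p = 0.00441) and Itgb4 at 0.47 with doxycycline against 1.56 without (adjusted p = 0.00163). The test also passed for Lama5 at -2.10 with doxycycline against -2.48 without (adjusted p = 0.00974) and Ncam1 at -0.50 with doxycycline against -1.41 without (adjusted p = 9.30e-06). Further genes were Tubb5 at 0.31 with doxycycline against 1.18 without (adjusted p = 4.78e-04).

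Among genes named in the text outside the naming rule, Isl1 was fitted at -0.37 with doxycycline against 0.72 without (adjusted p = 1.57e-04), and Ret at -0.06 with doxycycline against 0.53 without (adjusted p = 0.00710). Opposite signs were also fitted for Dkk1 at -0.16 with doxycycline against 1.31 without (adjusted p = 1.29e-04) and Ccnd1 at -0.25 with doxycycline against 0.51 without (adjusted p = 0.00213). The same direction with a smaller size was fitted for Cacna1i at -0.73 with doxycycline against -1.30 without (adjusted p = 0.00165), Col18a1 at 2.38 with doxycycline against 3.35 without (adjusted p = 0.00330), Ddit3 at -0.74 with doxycycline against -1.61 without (adjusted p = 0.00301) and Fzd3 at -0.84 with doxycycline against -1.33 without (adjusted p = 0.00257).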

How the results depend on the processing

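With no minimum log2 difference, 5180 genes were higher in CAD and 4111 in N2A. With a minimum of 2 the counts were 1024 and 1009, and with glmTreat, which tests against the minimum, 1323 and 1178. With WT Soma in place of CAD Soma -dox, 3883 genes were higher in N2A. Leaving out libraries gave 1771 to 2174 genes higher in CAD and 1487 to 2587 higher in N2A. The lowest of each range came without both replicate 2 libraries, which have the highest mitochondrial share of their line, an alternative chosen after seeing the data. Upper-quartile scaling gave 1725 and 2814, and library size alone 1894 and 2484. DESeq2 gave 2058 and 2421, and no filter on low counts 2645 and 2418 of 33150 genes tested. The cause of these changes was not tested, beyond the stricter or looser thresholds themselves.

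With the replicate number as a block, which the pairing check allows, the counts were 2115 and 3097, and no called gene named from the lists lost its call.

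The direction of 7 genes turned. Cntnap2, called higher in CAD at 1.27, was at -0.23 with length-scaled counts and Pecam1, not called like the next genes, at -0.05 with upper-quartile scaling. Slc6a2 was at -0.13 with upper-quartile scaling, -0.03 with library size alone, -0.01 with length-scaled counts, -0.12 without CAD replicate 1 and from -0.35 (without N2A replicate 3) to 0.35 with other libraries left out. Tardbp was at -0.09 with upper-quartile scaling and from -0.02 (without N2A replicate 1) to 0.12 with a library left out. Hoxc9 was at 0.13 with no filter, 0.04 with all 24 libraries and from -0.10 to 0.07 with a library left out, Pou4f1 at 0.03 with no filter and from -0.23 to 0.01 with a library left out, and Cdkn1a at -0.04 with upper-quartile scaling, and none of these 3 was called. Genes of low count were left out of the test by the filter.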
